A study of Mus musculus with 12 samples.

Results

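The enzymes that turn cholesterol into conjugated bile acids were followed across 4 populations of sorted mouse liver cells. They are 10 genes chosen by symbol: Cyp7a1, Cyp8b1, Cyp27a1, Cyp7b1, Cyp39a1, Hsd3b7, Akr1d1, Amacr, Slc27a5 and Baat. All 10 were found among the 53599 genes of the count table, and 9 of them passed the filter on low counts that left 16210 genes for testing. Hsd3b7 did not pass it. The mice were labelled WT and had received AAV8-TBG-Cre, a virus that carries Cre recombinase under a hepatocyte promoter, so that EGFP marks cells that were hepatocytes at injection and their descendants. From 1 week later all of them were fed 0.1% DDC, a porphyrinogenic compound that injures bile ducts and induces biliary reprogramming of hepatocytes, for 8 weeks. The early group was sorted as EGFP+ Cd24- Epcam-, the intermediate group as EGFP+ Cd24+ Epcam-, the full group as EGFP+ Cd24+ Epcam+, and the resident biliary epithelial cells (BEC) as EGFP- Epcam+. Each group had 3 libraries. The virus and the diet were thus shared by every group, no undamaged liver was compared here, and the labels used here give neither age nor sex nor whether animals were pooled.

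Bile acids are made from cholesterol almost entirely in hepatocytes. The classical route starts with Cyp7a1, its rate-limiting enzyme, and Cyp8b1 on this route sets how much of the product is cholic acid. The alternative route starts at the sterol side chain with Cyp27a1, a mitochondrial enzyme, and goes on through Cyp7b1, whereas Cyp39a1 is the oxysterol hydroxylase that prefers 24-hydroxycholesterol. Hsd3b7 and Akr1d1 then modify the steroid rings, Amacr inverts the side chain in peroxisomes and mitochondria before it is shortened, and Slc27a5 and Baat activate bile acids with coenzyme A and join them to taurine or glycine. Cholangiocytes, the BEC of the bile ducts, modify and take up bile but are not a site of this synthesis.

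The genes lie on 8 chromosomes (Cyp7a1 and Baat on 4, Cyp8b1 on 9, Cyp27a1 on 1, Cyp7b1 on 3, Cyp39a1 on 17, Slc27a5 and Hsd3b7 on 7, Akr1d1 on 6, Amacr on 15). Promoter sequence from RefSeq (build GRCm38.p6) was matched for 4 of the 10 genes. The 3 of these that passed the filter were each lower in BEC than in early, though by unlike courses. They are shown, each as the 250 bases before the annotated start, 5′ to 3′ on the gene's strand, with matches to the searched motifs in capitals.
Cyp8b1: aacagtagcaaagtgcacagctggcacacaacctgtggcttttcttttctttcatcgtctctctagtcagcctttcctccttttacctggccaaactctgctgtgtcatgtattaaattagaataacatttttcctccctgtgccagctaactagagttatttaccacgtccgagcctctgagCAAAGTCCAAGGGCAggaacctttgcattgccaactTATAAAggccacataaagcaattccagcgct
Cyp27a1: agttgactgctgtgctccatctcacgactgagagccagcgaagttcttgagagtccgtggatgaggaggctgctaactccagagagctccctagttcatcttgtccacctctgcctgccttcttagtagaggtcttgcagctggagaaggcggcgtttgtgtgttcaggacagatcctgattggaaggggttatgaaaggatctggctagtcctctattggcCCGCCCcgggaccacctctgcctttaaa
Akr1d1: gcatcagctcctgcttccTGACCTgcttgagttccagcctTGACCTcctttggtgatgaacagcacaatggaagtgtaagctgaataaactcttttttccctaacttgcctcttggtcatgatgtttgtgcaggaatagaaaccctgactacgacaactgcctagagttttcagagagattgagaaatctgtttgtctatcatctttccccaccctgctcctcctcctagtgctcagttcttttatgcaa
These windows are chr9:121916306-121916555 (minus strand) for Cyp8b1, chr1:74713285-74713534 (plus strand) for Cyp27a1 and chr6:37529923-37530172 (plus strand) for Akr1d1. Both strands were searched for exact matches to 6 motifs. These were a nuclear receptor hexamer with the letters AGGTCA, an Nr5a2 site with the letters CAAGGNCA and an HNF4A core with the letters CAAAGTCCA. The others were an HNF1 hexamer with the letters GTTAAT, the TATA box with the letters TATAAA and the GC box with the letters GGGCGG. The Cyp8b1 window held the HNF4A core from -67 to -59, overlapped by the Nr5a2 site from -60 to -53, and the TATA box from -31 to -26, counted back from the start. The Cyp27a1 window held a GC box on the opposite strand from -28 to -23, and the Akr1d1 window held the receptor hexamer on the opposite strand at -232 to -227 and at -210 to -205. Of 32851 promoters of the same length, 0.384% held the HNF4A core, 5.53% the Nr5a2 site, 12.4% the TATA box, 32.7% the GC box, 14.0% the receptor hexamer and 6.43% the HNF1 hexamer. The promoter of Hsd3b7, the fourth that was matched, held a GC box on the opposite strand from -54 to -49. The 3 promoters printed shared no motif among those searched, and a match is a description of the letters only.

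Libraries held 15112893 to 19731887 counts. Levels are given in CPM, which relate the counts of a gene to the library size scaled by TMM factors (0.652 to 1.22), and changes as log2 fold changes from edgeR's quasi-likelihood test with Benjamini-Hochberg adjustment over all genes tested, called at an adjusted p under 0.05. Scaling by total counts only would put the median over all genes at 0.72 between intermediate and early and at 0.21 between full and intermediate (log2), so directions are relative to the TMM scale. The labels were checked against marker genes: 5 hepatocyte markers (Alb, Ttr, Apoa1, Fgb and Cyp3a11) summed to 94453 to 97045 CPM in early, 15470 to 18946 in intermediate, 3150 to 4061 in full and 1866 to 2428 in BEC libraries, and each of the 5 was called lower at both steps from early to full. Of 6 biliary markers Spp1 (means 1237, 9866, 11316 and 12144 CPM from early to BEC) and Sox9 (43.4, 311, 378 and 388) were already near their BEC level in intermediate. The other 4 were not: Krt19 went through 0.111, 2.21, 118 and 593 CPM, Krt7 through 0.304, 3.44, 172 and 388, Epcam through 0.592, 18.8, 254 and 866, and Cftr through 0.0567, 11.9, 160 and 251. Because the groups were sorted on Epcam, its course is no independent check of the labels. The mitochondrial share of counts ran from 5.45% to 11.4% in early, 3.99% to 4.75% in intermediate, 2.20% to 2.48% in full and 2.58% to 3.43% in BEC libraries. Its part in the results was not tested.

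Added over all 10 genes, the bile acid synthesis transcripts made up 1886 to 1903 CPM in early libraries, 341 to 405 in intermediate, 120 to 140 in full and 54.0 to 70.0 in BEC. The 4 ranges did not overlap. As an unscaled share of all counts they were 0.123% to 0.127% in early, 0.0359% to 0.0418% in intermediate, 0.0146% to 0.0168% in full and 0.00646% to 0.00841% in BEC libraries, a smaller fall from early than on the TMM scale. In bulk RNA of a sorted population, fewer cells with a transcript and less of it per cell cannot be told apart. All 9 genes tested differed among the 4 groups, where 75.6% of all genes did.

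**Figure D1:**
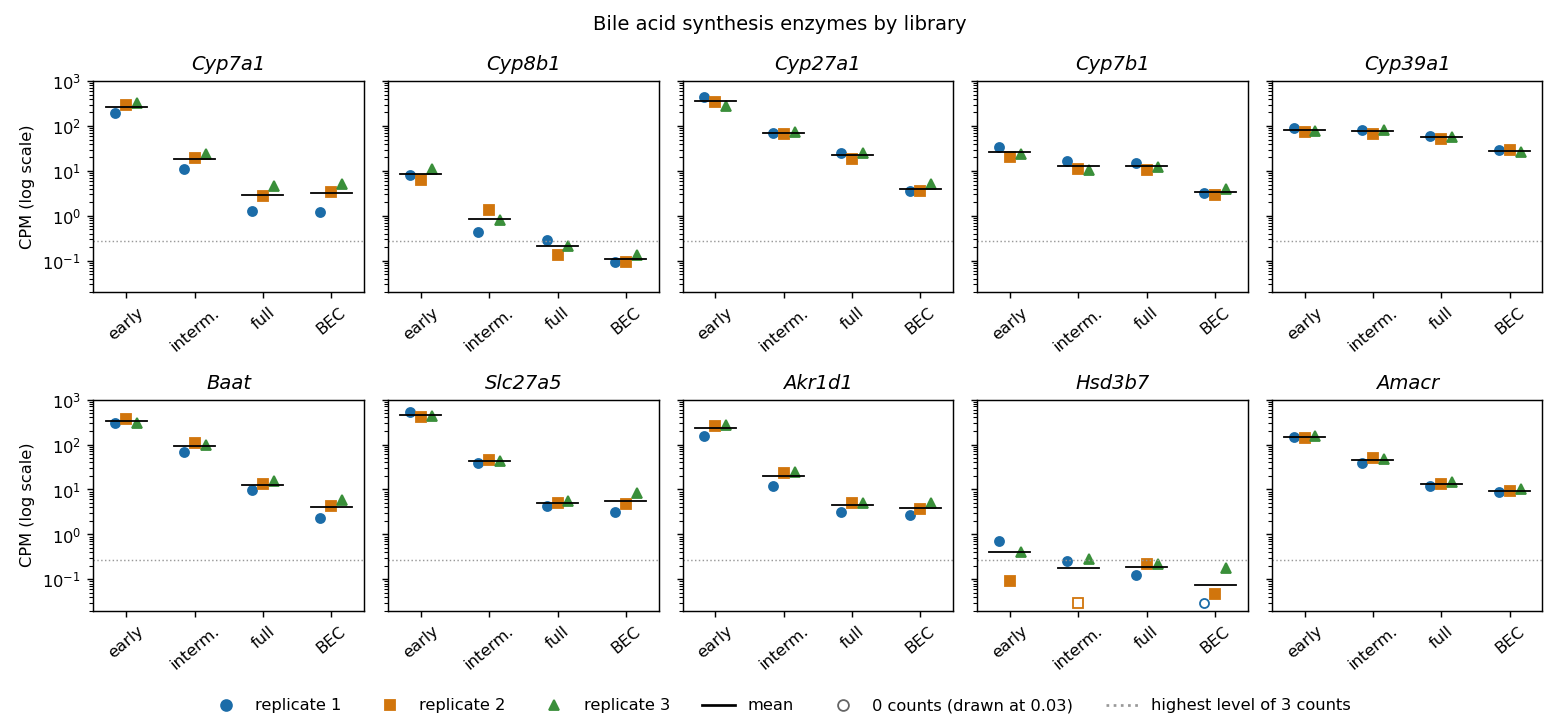
Level of each of the 10 bile acid synthesis genes in each of the 12 libraries, in TMM-scaled CPM on a log axis, by group (3 libraries each). Open symbols are libraries with 0 counts, and the dotted line marks the highest level that 3 counts stand for in any library (0.273 CPM); most genes step down from early to intermediate and from intermediate to full, whereas Cyp39a1 stays between 26.0 and 91.2 CPM and Hsd3b7 lies near the dotted line throughout.

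Cyp7a1, the first hydroxylase of the classical route, had the largest estimated fall of the 9 genes at the first step and fell again at the second. When 1 library was left out, its first fall ran from -4.13 to -3.64 (log2), which overlapped the ranges of Akr1d1 (-3.71 to -3.23) and Cyp8b1 (-3.77 to -2.97). Cyp7a1 stood at 199, 289 and 321 CPM in early libraries, at 11.0, 19.6 and 23.6 in intermediate, at 1.32, 2.76 and 4.72 in full, and at 1.25, 3.40 and 5.03 in BEC (replicates 1, 2 and 3). Early libraries lay above intermediate ones and intermediate above full ones without overlap, whereas full and BEC overlapped. Intermediate cells had 14.9-fold less Cyp7a1 than early cells (log2 fold change -3.90, SE 0.40, edgeR adjusted p 2.08e-06). Full cells had less again than intermediate cells (-2.63, SE 0.44, edgeR adjusted p 0.000306). Between BEC and full the difference was 0.15 with a 95% interval from -0.91 to 1.21 (edgeR adjusted p 0.889). The spread within groups was wide: replicate 1 was the lowest and replicate 3 the highest in all 4 groups.

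Cyp8b1, which acts after Cyp7a1 on the same route, also fell at both steps and was counted far less often. Its level was 7.99, 6.46 and 11.2 CPM in early libraries and 0.440, 1.37 and 0.792 CPM in intermediate libraries. In full libraries it was 0.298, 0.134 and 0.219 CPM, from 7, 3 and 5 counts, and in BEC libraries 2, 2 and 3 counts remained. No pair of neighbouring groups overlapped from early to full. The log2 fold change was -3.28 at the first step (SE 0.38, edgeR adjusted p 7.63e-06) and -1.98 at the second (SE 0.49, edgeR adjusted p 0.0053), and the second was no longer called against a minimum 2-fold change (adjusted p 0.0749). Summed over libraries, early held 79.1 times the BEC level (95% interval 38.0 to 198, counting error only) and full 1.997 times (0.766 to 5.79). BEC against full was not called (-0.95, interval -2.37 to 0.47, edgeR adjusted p 0.383).

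Cyp27a1, which opens the alternative route, fell at both steps and was lower again in BEC. It stood at 431, 339 and 283 CPM in early, 69.9, 66.4 and 72.3 in intermediate, 25.1, 18.1 and 24.9 in full and 3.66, 3.54 and 5.03 in BEC libraries. None of the 4 groups overlapped another. The log2 fold change was -2.34 from early to intermediate (SE 0.17, edgeR adjusted p 7.62e-08), -1.61 from intermediate to full (SE 0.17, edgeR adjusted p 4.81e-06) and -2.47 for BEC against full (SE 0.19, edgeR adjusted p 8.12e-07). Full cells thus held 5.57-fold more Cyp27a1 than resident BEC.

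Cyp7b1, the oxysterol hydroxylase of that route, had a different course. Its levels were 34.6, 20.3 and 24.3 CPM in early, 16.5, 10.9 and 10.6 in intermediate, 15.1, 10.6 and 12.1 in full and 3.28, 2.98 and 3.93 in BEC libraries. Early lay above intermediate, intermediate and full overlapped almost wholly, and BEC lay below both. It fell 2.09-fold at the first step (log2 fold change -1.07, SE 0.22, edgeR adjusted p 0.00115), which total counts only did not call (-0.40, adjusted p 0.127) nor a minimum 2-fold change (adjusted p 0.607). Full against intermediate gave -0.00 (interval -0.48 to 0.48, edgeR adjusted p 0.993). BEC were 3.71-fold lower than full (-1.89, SE 0.24, edgeR adjusted p 7.27e-05).

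Cyp39a1 was the flattest of the 9. It stood at 91.2, 73.9 and 75.7 CPM in early, 83.2, 64.9 and 81.4 in intermediate, 60.8, 52.0 and 57.4 in full and 29.0, 29.1 and 26.0 in BEC libraries. Early and intermediate overlapped, and full and then BEC lay below them. The first step gave a log2 fold change of -0.07 (interval -0.32 to 0.18, edgeR adjusted p 0.636) on the TMM scale and 0.60, called higher (adjusted p 0.000315), with total counts only. It fell by 0.43 on the log2 scale from intermediate to full (SE 0.11, edgeR adjusted p 0.00824), which neither total counts only (-0.23, adjusted p 0.109) nor a minimum 2-fold change called. BEC held 2.02-fold less than full cells (-1.02, SE 0.12, edgeR adjusted p 2.82e-05).

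Of the ring-modifying enzymes, Akr1d1, the reductase that gives bile acids their bent ring system, fell at both steps and did not differ detectably between full and BEC. It stood at 153, 256 and 275 CPM in early, 12.2, 23.8 and 24.5 in intermediate, 3.19, 5.04 and 4.99 in full and 2.65, 3.73 and 5.12 in BEC libraries. Full and BEC overlapped, and the other neighbours did not. It fell by 3.49 on the log2 scale at the first step (SE 0.29, edgeR adjusted p 3.39e-07) and further at the second (-2.20, SE 0.31, edgeR adjusted p 8.51e-05), and BEC against full gave -0.20 (interval -0.94 to 0.55, edgeR adjusted p 0.774). As for Cyp7a1, replicate 1 was the lowest in all 4 groups.

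Hsd3b7, the dehydrogenase and isomerase that acts on the ring after the first hydroxylation, was barely counted in any group. Its counts were 9, 1 and 5 in early, 4, 0 and 5 in intermediate, 3, 5 and 5 in full and 0, 1 and 4 in BEC libraries, 42 in all, and the groups overlapped. In GENCODE M21, 99.2% of its 2769 exonic bases are shared with other genes: 62.0% with Gm49388 on the same strand, which had 1 count in all libraries together, and 62.4% with 9430064I24Rik on the opposite strand, which had 33. How reads on shared exons and strands were counted is not given in the sources used here, so the level of Hsd3b7 is uncertain and its low counts are no measure of the transcript. Without the filter, edgeR gave an adjusted p of 0.349 for any difference among the 4 groups. The exons of the other 9 genes overlapped no other gene's exons in that annotation.

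Amacr, the side chain racemase, declined evenly with little spread. It stood at 146, 136 and 153 CPM in early, 39.5, 50.1 and 47.5 in intermediate, 11.7, 12.9 and 14.9 in full and 8.57, 9.27 and 10.1 in BEC libraries. None of the 4 groups overlapped another. The log2 fold change was -1.66 at the first step (SE 0.11, edgeR adjusted p 4.92e-08) and -1.80 at the second (SE 0.12, edgeR adjusted p 1.2e-07). BEC were lower than full by a smaller amount (-0.50, SE 0.12, edgeR adjusted p 0.00892), which was not called without full replicate 3 (-0.40, adjusted p 0.0514).

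Both conjugation enzymes fell at both steps, and Baat was also lower in BEC than in full. Slc27a5, the bile acyl-CoA synthetase, stood at 522, 409 and 436 CPM in early, 39.2, 45.0 and 43.9 in intermediate, 4.30, 5.13 and 5.55 in full and 3.18, 4.85 and 8.50 in BEC libraries. It fell by 3.41 on the log2 scale at the first step (SE 0.23, edgeR adjusted p 4.87e-08) and by 3.10 at the second (SE 0.25, edgeR adjusted p 5.47e-07), and BEC and full libraries overlapped (0.15, interval -0.41 to 0.71, edgeR adjusted p 0.773). Baat, the amino acid N-acyltransferase, stood at 301, 373 and 307 CPM in early, 68.8, 105 and 100 in intermediate, 9.96, 13.2 and 15.3 in full and 2.26, 4.38 and 5.85 in BEC libraries. Its groups did not overlap. It fell at the first step (-1.84, SE 0.23, edgeR adjusted p 1.52e-05), at the second (-2.83, SE 0.25, edgeR adjusted p 1.23e-06) and was lower in BEC than in full (-1.62, SE 0.27, edgeR adjusted p 0.000666).

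Counted over the 9 genes tested, 8 were lower in intermediate than in early, all but Cyp39a1, where 25.7% of all genes were called lower. From intermediate to full 8 were lower, all but Cyp7b1, against 19.8% of all genes. Between BEC and full 5 were lower in BEC (Cyp27a1, Cyp7b1, Cyp39a1, Baat and Amacr) against 10.6% of all genes, and Cyp7a1, Cyp8b1, Slc27a5 and Akr1d1 were not called. Against a minimum 2-fold change only Cyp27a1 and Cyp7b1 of these 5 were still called, where 2.45% of all genes were lower, and Cyp39a1, Baat and Amacr were not. All 9 were lower in full than in early (32.1% of all genes lower), in BEC than in early (33% lower) and in BEC than in intermediate (26.2% lower). No gene of the 9 was called higher in any of these comparisons on the TMM scale. Scaled by total counts, which called 59.4% of all genes higher at the first step and 66.4% from early to full, Cyp39a1 was among the genes called higher in both, and Cyp7b1 was not called between full and early (-0.20, edgeR adjusted p 0.405). Against a minimum 2-fold change neither Cyp7b1 nor Cyp39a1 was called between full and early. The median log2 fold change of the 9 was -2.34 at the first step, -1.98 at the second and -0.95 between BEC and full, beside 0.06, 0.01 and 0.00 over all genes tested. With total counts only it was -1.67 at the first step, beside 0.72 over all genes.

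**Figure D2:**
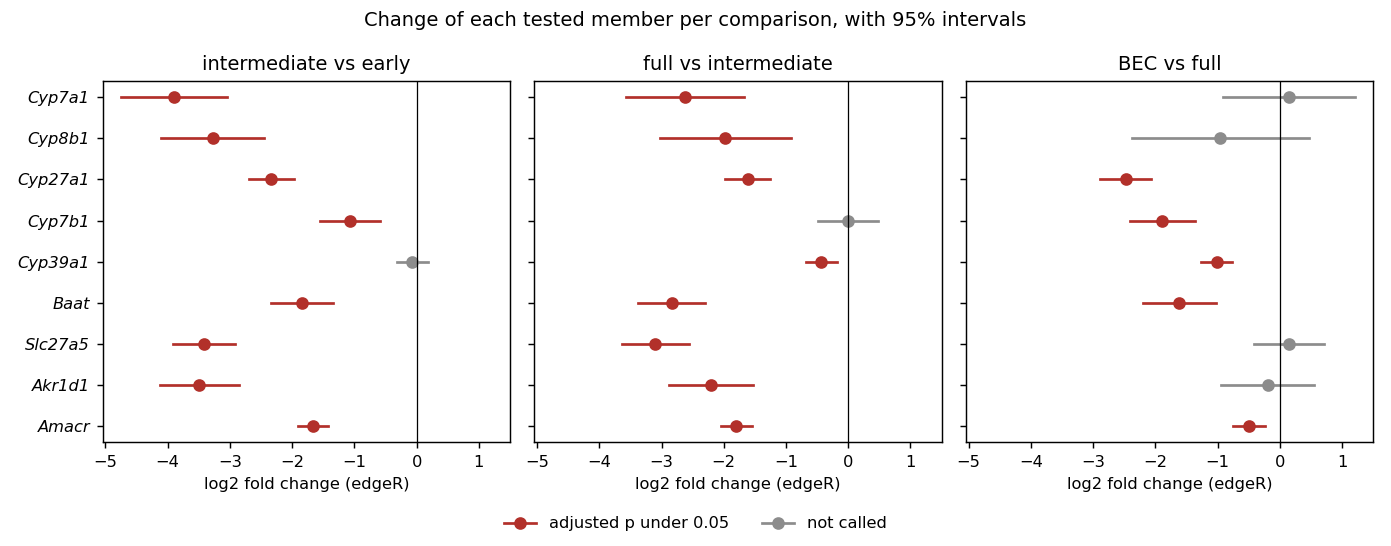
Log2 fold change of the 9 tested bile acid synthesis genes at the first step (intermediate against early), the second step (full against intermediate) and between BEC and full, with 95% intervals from edgeR; red points were called at an adjusted p under 0.05 and grey points were not. The first 2 panels hold 8 called genes each and the last holds 5, and the intervals of Cyp7a1, Cyp8b1, Slc27a5 and Akr1d1 in the last panel span 0.

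Whether the 2 steps differed in size was tested directly, as the second change minus the first, where 16.4% of all genes were called in either direction. edgeR called 0 of the 9 genes, and 4 had an unadjusted p under 0.05 (Cyp27a1, Cyp7b1, Baat and Akr1d1). Cyp7b1 had the lowest adjusted p, with a difference of 1.06 (adjusted p 0.0857), and Cyp27a1 gave 0.72 (adjusted p 0.105). Akr1d1 gave 1.29 (edgeR adjusted p 0.108) and Baat -0.996 (adjusted p 0.105). Cyp7a1 (1.27), Cyp8b1 (1.30), Slc27a5 (0.32), Cyp39a1 (-0.36) and Amacr (-0.13) had edgeR adjusted p between 0.251 and 0.719, and Hsd3b7 was not tested. DESeq2 called 3 of the 9, Cyp27a1, Cyp7b1 and Akr1d1, where it called 19.8% of all genes. Because libraries with the same replicate number deviated together at both steps, the fit with the replicate number as a block is given as well. It called 4, where it called 21.6% of all genes: Cyp7a1 (1.30, edgeR adjusted p 0.00813), Cyp7b1 (1.06, adjusted p 0.0122) and Akr1d1 (1.34, adjusted p 0.000155) with the smaller fall at the second step, and Baat (-0.96, adjusted p 0.0131) with the larger fall there. Without the block, 0 to 2 of the 9 were called when 1 library was left out, where 9.96% to 17.1% of all genes were: Akr1d1 without early replicate 1 (1.51, adjusted p 0.0369), Cyp7b1 without early replicate 2 (1.22, adjusted p 0.0497), Cyp27a1 without early replicate 3 (0.85, adjusted p 0.0491), Cyp7b1 and Baat without intermediate replicate 1 (1.52, adjusted p 0.0312, and -1.34, adjusted p 0.0472) and Baat without BEC replicate 1 (-1.003, adjusted p 0.0422).

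Hydroxylases were compared within each library by the log2 ratio of their transcripts, read only for its change, since it is not corrected for length. The ratio of Cyp7b1 to Cyp7a1 was -2.52, -3.83 and -3.72 in early, 0.58, -0.84 and -1.15 in intermediate, 3.41, 1.90 and 1.33 in full and 1.31, -0.18 and -0.35 in BEC libraries. Its mean was 2.88 higher in intermediate than in early, 2.69 higher in full than in intermediate and 1.95 higher in full than in BEC, in each case with no overlap between the groups. The exact 2-sided permutation p was 0.1 each time, the smallest that 3 against 3 libraries allow, so none could pass 0.05. Within libraries of the same replicate number it differed the same way in 3 of 3 pairs each time (paired exact permutation p 0.25, the smallest that 3 pairs allow). The ratio of Cyp8b1 to Cyp7a1, both of the classical route, was -4.97 ± 0.44 in early and -4.26 ± 0.50 in intermediate libraries (SD, n = 3), a difference of 0.70 with an exact permutation p of 0.2 without regard to the pairs. Within pairs it was 0.28, 1.73 and 0.10 (paired exact permutation p 0.25). No difference of this ratio is read in full and BEC, where Cyp8b1 had 3 to 7 and 2 to 3 counts a library and the added prior count of 2 sets much of the value.

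**Figure D3:**
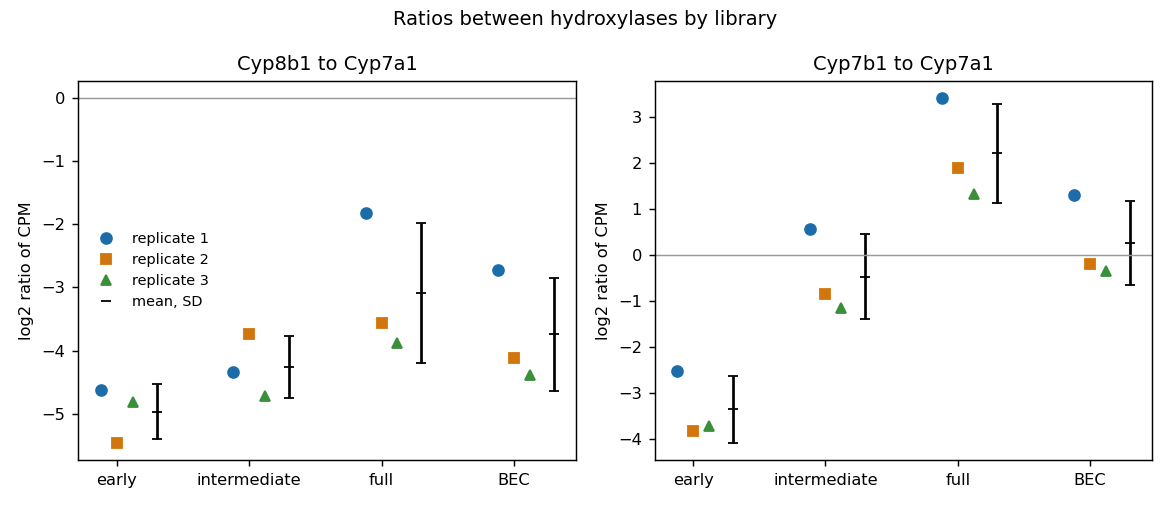
Log2 ratio of Cyp8b1 to Cyp7a1 and of Cyp7b1 to Cyp7a1 in each library (points), with the mean and SD of each group of 3. The ratio of Cyp7b1 to Cyp7a1 goes from a mean of -3.35 in early to 2.22 in full and back to 0.26 in BEC, whereas early and intermediate overlap in the other ratio. Its full and BEC points rest on at most 7 counts of Cyp8b1 a library and on the prior count of 2.

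Set against exonic length (GENCODE M21), the order of the genes changed from group to group. In early cells Slc27a5 (187 ± 24.1 CPM per kb), Baat (168 ± 20.5) and Cyp27a1 (162 ± 34.4) led and did not differ beyond their spread. Akr1d1 (78.7 ± 22.8), Cyp7a1 (64.6 ± 15.1) and Amacr (55.7 ± 3.23) followed, again within their spread, and below them came Cyp39a1 (26.3 ± 3.11), Cyp7b1 (12.2 ± 3.42) and Cyp8b1 (4.39 ± 1.26). In intermediate cells Baat (47.1 ± 10.2 CPM per kb), Cyp27a1 (32.0 ± 1.37) and Cyp39a1 (25.1 ± 3.30) were highest. In full cells Cyp39a1 led with 18.6 ± 1.45 CPM per kb, before Cyp27a1 (10.4 ± 1.83), Baat (6.61 ± 1.38), Cyp7b1 (5.82 ± 1.06) and Amacr (5.06 ± 0.606), of which the last 3 overlapped in their spread. In BEC Cyp39a1 (9.18 ± 0.566 CPM per kb) stood above Amacr (3.58 ± 0.302), followed by Slc27a5 (2.26 ± 1.12), Baat (2.15 ± 0.928) and Cyp27a1 (1.88 ± 0.380) within their spread, all means with SD, n = 3. Cyp7a1 had dropped to 0.703 CPM per kb in full and 0.773 in BEC, with only Cyp8b1 lower among the tested genes.

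Expressed as a percentage of the early mean, the genes fell into unlike residual levels. Cyp7a1 kept 6.70% in intermediate, 1.09% in full and 1.20% in BEC, Slc27a5 9.38%, 1.10% and 1.21%, and Akr1d1 8.85%, 1.93% and 1.68%. Cyp8b1 kept 10.1%, 2.53% and 1.27%, Baat 28.0%, 3.92% and 1.27%, Cyp27a1 19.8%, 6.47% and 1.16%, and Amacr 31.5%, 9.08% and 6.43%. Cyp7b1 kept 47.9% in intermediate and 47.7% in full but 12.9% in BEC, and Cyp39a1 kept 95.3%, 70.7% and 34.9%. The 5 hepatocyte markers, measured in the same libraries, kept 7.61% to 33.9% in intermediate, 1.10% to 8.67% in full and 0.932% to 4.94% in BEC, with Apoa1, the main HDL protein, at 1.10% in full and 0.932% in BEC. The levels of Cyp7a1, Cyp8b1, Slc27a5, Akr1d1, Baat and Cyp27a1 in BEC thus lay in the range of hepatocyte markers there, and those of Amacr, Cyp7b1 and Cyp39a1 above it. The part of hepatocyte RNA in these residual levels was not tested.

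**Figure D4:**
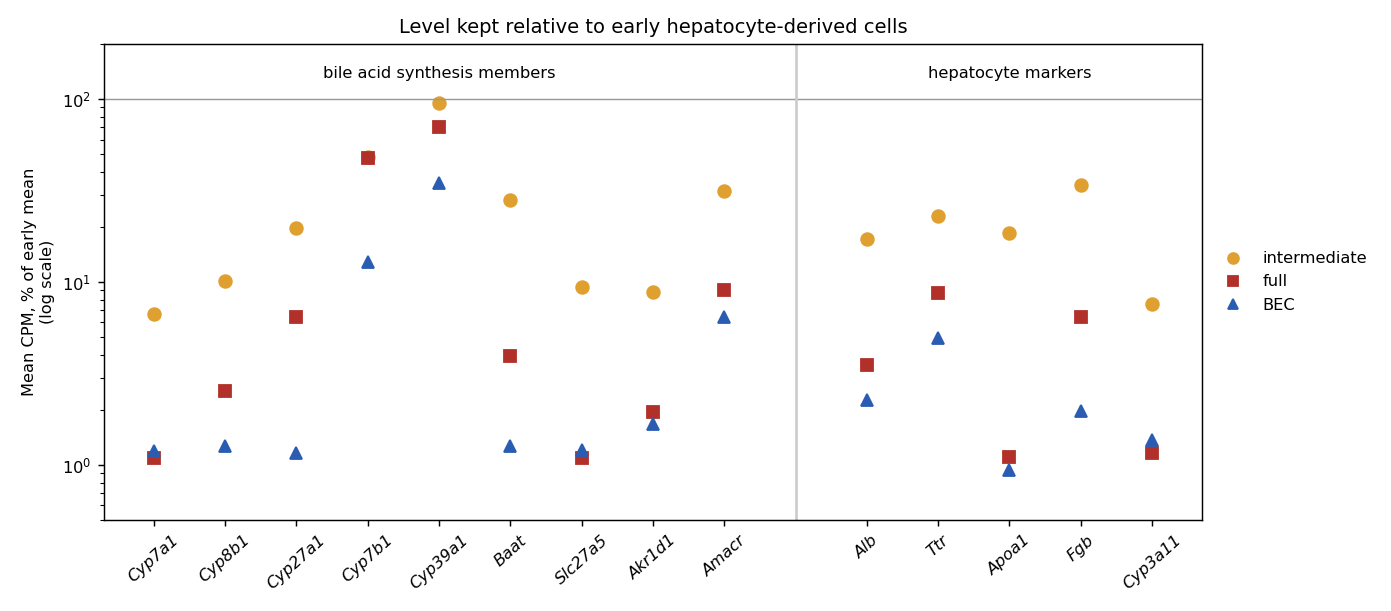
Mean level of the 9 tested bile acid synthesis genes and of 5 hepatocyte markers in intermediate, full and BEC libraries, as a percentage of the early mean, on a log axis (means of 3 libraries). In BEC 6 of the synthesis genes lie between 1.16% and 1.68% of early, near Apoa1 and Cyp3a11, and Cyp39a1 is the highest at 34.9%.

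Seen as a share of the log2 distance from early to BEC, full cells had covered 102% for Cyp7a1, 102% for Slc27a5 and 96.7% for Akr1d1. The share was 87.4% for Amacr, 84.6% for Cyp8b1 (on 2 to 3 counts a library in BEC), 74.3% for Baat and 61.5% for Cyp27a1. It was 36.1% for Cyp7b1 and 33.0% for Cyp39a1, the smallest shares of the 9. In intermediate cells the shares already ran from 4.60% for Cyp39a1 to 61.1% for Cyp7a1.

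Other cell types were looked for through their markers. Of 6 macrophage markers, Adgre1, Clec4f, Cd5l and Marco averaged at most 4.60 CPM in every group, and Cd68 went through 14.0, 2.74, 1.62 and 3.46 CPM from early to BEC. Csf1r, the receptor of macrophage colony-stimulating factor, went the other way, through 3.94, 24.6, 67.8 and 127 CPM, and made up most of the rise of their sum from 21.2 to 23.8 CPM in early libraries to 132 to 145 in BEC. Stellate cell and fibroblast markers ran from 94.6 to 272 CPM in early and from 48.8 to 86.2 in BEC, and endothelial markers reached at most 20.6 CPM. Erythroid markers (Hba-a1, Hbb-bs and Alas2) summed to 18.7 to 32.9 CPM in early and to at most 3.17 CPM elsewhere. In early Hba-a1 was at 0 and Hbb-bs averaged 0.0791 CPM, so nearly all of the sum there was Alas2. Neutrophil, B cell, and T and NK cell markers summed to at most 0.340 CPM in any library. Their part in the results was not tested.

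The other enzymes and cofactors of bile acid synthesis were mostly called lower at both steps as well, with smaller medians. Of 12 such genes 11 were tested, and 10 were lower in intermediate than in early (median log2 fold change -1.25), 9 lower with 1 higher at the step to full (-1.05), and 2 lower with 1 higher between BEC and full (0.01). Of all genes 25.7%, 19.8% and 10.6% were called lower in these 3 comparisons. At the step to full 3376 of 16210 genes were called higher, and 1727 in BEC against full. With total counts only the list gave 9 lower, then 7 lower and 1 higher, then again 2 lower and 1 higher, where 10.01%, 12.2% and 10.6% of all genes were lower. Acox2, the peroxisomal oxidase of the bile acid side chain, stood at 366 ± 52.3 CPM in early, 139 ± 10.5 and 49.97 ± 3.10 at the next stages and 95.8 ± 7.13 in BEC (SD, n = 3), where it was higher than in full (0.94, edgeR adjusted p 4.28e-05). Scp2, the peroxisomal thiolase and sterol carrier, fell from 2613 ± 410 to 554 ± 54.6 and 205 ± 23.0 CPM and was 162 ± 18.0 in BEC (SD, n = 3), where the replicate block called it lower than full (-0.34, edgeR adjusted p 0.0114, against 0.105 without the block). Hsd17b4, the peroxisomal bifunctional enzyme, fell by 1.10 and 0.86 on the log2 scale at the 2 steps and was lower in BEC than in full (-0.29, edgeR adjusted p 0.0286). Slc27a2, a very long chain acyl-CoA synthetase, fell by 2.16 and 2.88 at the 2 steps and was lower again in BEC (-1.59), all called. Cyp2c70, which makes the muricholic acids of mice, fell from 685 ± 70.0 to 60.7 ± 7.49 and 7.20 ± 2.28 CPM and stood at 9.01 ± 4.30 in BEC (SD, n = 3), where it was not called against full (edgeR adjusted p 0.519). Abcd3, a peroxisomal carrier for side chain intermediates, fell by 1.08 and by 0.53 on the log2 scale at the 2 steps, the second not called by edgeR once scaled by total counts (-0.33, adjusted p 0.0637). Cyp46a1, the cholesterol hydroxylase whose product Cyp39a1 accepts, was near the detection limit in early (0.883 ± 0.449 CPM, n = 3) and was the gene called higher in full than in intermediate (2.25 ± 1.04 against 0.705 ± 0.215 CPM, SD, n = 3, edgeR adjusted p 0.00977). Ch25h, a cholesterol hydroxylase of the endoplasmic reticulum, had 0 to 3 counts in every library and was not tested.

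Regulators of the pathway had smaller median changes. Of 17 tested, 13 were lower and 1 higher at the first step (median -0.86), 8 were lower at the second (-0.52) and 8 lower in BEC than in full (-0.22), where 25.7%, 19.8% and 10.6% of all genes were lower. At the first step 4658 of 16210 genes were higher, a larger share than among the regulators. With total counts only the first step gave 5 lower and 3 higher, where 10.01% of all genes were lower and 59.4% higher. Nr1h4 (FXR, the bile acid receptor that lowers Cyp7a1) stood at 225 ± 10.1, 124 ± 5.20, 54.1 ± 7.48 and 28.9 ± 2.41 CPM from early to BEC (SD, n = 3) and was called lower at both steps and in BEC against full, the first not with total counts only (-0.20, edgeR adjusted p 0.086). Its target Nr0b2 (SHP) fell from 24.4 ± 6.84 to 15.5 ± 4.37 CPM (edgeR adjusted p 0.0432, a direction that turned with total counts only, at 0.02) and from 10.8 ± 2.75 in full to 3.52 ± 0.787 in BEC (SD, n = 3). Between intermediate and full the replicate block called it lower (-0.52, edgeR adjusted p 0.0101, against 0.124 without the block). Nr5a2 (LRH-1, an activator of Cyp7a1 and Cyp8b1) stood at 128 ± 5.32, 127 ± 11.8, 146 ± 7.12 and 132 ± 5.29 CPM (SD, n = 3) and was not called in any of the 3 comparisons on the TMM scale. With total counts only it was called higher at the first (0.65) and the second step (0.41). Hnf4a, a hepatocyte nuclear receptor, fell by 0.84 and 1.77 at the 2 steps and was lower in BEC than in full (-0.52), the first not called with total counts only (-0.17, edgeR adjusted p 0.196).

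Fgfr4 and Klb form the receptor for intestinal FGF, a signal that represses Cyp7a1. Fgfr4 stood at 128 ± 5.01, 162 ± 9.20, 147 ± 12.01 and 116 ± 10.1 CPM from early to BEC (SD, n = 3) and was higher in intermediate than in early (0.34, edgeR adjusted p 0.00677). Its coreceptor Klb stood at 48.4 ± 5.75, 30.1 ± 3.16, 20.8 ± 2.96 and 1.15 ± 0.0698 CPM (SD, n = 3). Klb was lower in BEC than in full by 4.17 on the log2 scale (edgeR adjusted p 7.07e-09), and its fall at the first step was not called with total counts only (-0.02, edgeR adjusted p 0.891).

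Among bile acid transporters 14 of 16 were tested, and 11 were lower at the first step (median -1.50), 11 lower and 1 higher at the second (-1.97) and 5 lower and 1 higher in BEC than in full (-0.54), where the replicate block called 8 lower and 1 higher. Of all genes 25.7%, 19.8% and 10.6% were lower, and 12.6% in BEC against full with the block. Called higher were 3376 of 16210 genes at the second step, 1727 in BEC against full and 2047 there with the block. Slc10a1, the sodium-dependent uptake carrier of hepatocytes, fell from 260 ± 41.8 to 22.4 ± 5.00 and 3.48 ± 0.720 CPM and stood at 3.51 ± 1.36 in BEC (SD, n = 3). Abcb11, the bile salt export pump, stood at 536 ± 9.26, 50.5 ± 16.2, 6.24 ± 2.57 and 6.25 ± 2.67 CPM (SD, n = 3). Neither was called between BEC and full, with edgeR adjusted p of 0.981 and 0.992. Slc51b, a subunit of the basolateral exporter, had 142 counts over the early libraries and 7 over the BEC libraries, and full held 9.19 times the BEC level (95% interval 4.23 to 23.7, counting error only). Its fall from intermediate to full (-0.93, edgeR adjusted p 0.0436) was not called with the replicate block (adjusted p 0.0504) or with total counts only (adjusted p 0.105). Slc51a, the other subunit, had at most 6 counts in a library and was not tested.

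The 10 genes of cholesterol supply gave 8 lower at the first step (median -1.24), 8 lower and 1 higher at the second (-0.87) and 2 lower in BEC than in full (0.13), where the replicate block called 3 lower and 1 higher. The shares of all genes called lower were 25.7%, 19.8% and 10.6%, and with the block 12.6% were lower and 2047 of 16210 higher in BEC than in full. The gene that rose, Soat1, which esterifies cholesterol, went from 0.247 to 2.08 CPM and is named for having been the only one of the 10 called higher there on the TMM scale. It had 1 to 11 counts a library in intermediate, near the floor, and 42 to 55 in full. Soat1 passed the filter on low counts through full and BEC, so the size of its rise is uncertain. Of 10 pericentral hepatocyte genes, 10 were lower at the first step (median -2.90) and 4 lower and 1 higher at the second (-0.98), where 3376 of all 16210 genes were higher. Total counts only and the replicate block each called 2 of the 10 higher at the second step, at or below the background, since they called 5236 and 3718 of the 16210 genes higher. Of 10 periportal genes, 9 were lower at each of these steps (medians -3.16 and -3.01), and the gene called higher at both was Cdh1, the epithelial cadherin, which biliary cells also carry. At the first step 4658 of the 16210 genes were called higher. Pericentral genes kept a median of 13.5%, 5.43% and 3.28% of the early level in intermediate, full and BEC and periportal genes 11.3%, 1.25% and 1.34%, beside which stand the percentages of the synthesis genes above.

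The synthesis genes were also compared by the shape of their profile over the 12 libraries, as z-scored log2 CPM. Pearson's r with the mean profile of the 9 was 0.990 for Amacr, 0.987 for Cyp27a1, 0.986 for Baat, 0.968 for Slc27a5, 0.963 for Cyp8b1, 0.961 for Akr1d1, 0.947 for Cyp7a1, 0.880 for Cyp7b1 and 0.848 for Cyp39a1. These coefficients are a description over 12 libraries that share 4 groups. Each of the 9 genes is part of the mean it is set against, which raises its r. Among 9956 other genes with a mean of at least 10 CPM, the profiles nearest to that mean were those of Acp5 (r = 0.998), Slc38a3 (0.998), H2-Q10 (0.997), Bhmt2 (0.997) and C1rl (0.997). Nearest to Cyp39a1, the gene least like the mean, were Itga7 (0.985), Evi5 (0.985), Nox4 (0.984), Zhx3 (0.983) and Adam11 (0.981).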

How the data were processed

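Bulk RNA of 12 libraries (4 sorted populations, 3 each) was used, grouped by the sample titles. The authors deposited raw counts per gene symbol. The submitters' processing notes name STAR 2.7.10b, featureCounts 2.0.1, DESeq2 and build GRCm39. Which annotation was used, whether strand was taken into account and how reads with several matches were handled is not given in the sources used here. The second deposited table holds a signal (each library's counts over its own size factor) and served only to check the counts. No column lacked a sample.

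From the counts, edgeR 4.0.16 (R 4.3.3, limma 3.58.1) fitted all 12 libraries together with 1 term per group, TMM factors and filterByExpr by group, and tested contrasts with its quasi-likelihood test, adjusted over 16210 genes. The biological coefficient of variation was 14.8%. CPM were taken over TMM-scaled library sizes, with a prior count of 2 before the log2. The intervals of fold changes are 95% intervals. Libraries held 15112893 to 19731887 counts, and 3 counts correspond to 0.128 to 0.273 CPM. Floors and counting intervals cover counting error only, since PCR reads without molecular identifiers are not independent molecules. Ratios were tested by exact permutation (Python 3.11.15, scipy 1.17.1). Exonic lengths and overlaps came from GENCODE M21 and promoters from RefSeq, both of build GRCm38, so no coordinates of the authors' build are printed.

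Replicates of a group differed beyond counting noise (chi-square per degree of freedom 5.34 to 58.2). The labels do not say whether libraries came from separate animals, so p-values measure the spread between these libraries, which may be technical. Deviations of same-numbered libraries correlated across genes with r of 0.121 to 0.293 for intermediate and early, 0.137 to 0.322 for full and intermediate and 0.170 to 0.257 for BEC and full. The labels' replicate numbers thus pair libraries in these 3 comparisons, though what they mark is not stated. In the other 3 comparisons r was also above 0 but reached lower. It was 0.0960 to 0.209 for full and early, 0.0442 to 0.145 for BEC and early and 0.0839 to 0.175 for BEC and intermediate.

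The genes and lists were chosen with earlier results of these data known. All 10 synthesis genes and 18 further genes are named whatever their values, and 5 genes nearest in profile to the mean and to the least alike gene. Tf, a hepatocyte marker, was not found under that symbol in the count table and so was not used, and Alb stands in 2 lists. Alternatives were DESeq2 1.42.0, median-of-ratios factors, total counts, other filters, a minimum fold change, a replicate block, fits of 6 libraries, other prior counts, and leaving out each library. The procedure was tested on simulated counts for intermediate against early: of 200 genes moved by 2 on the log2 scale, among 15620, 100% were recovered, and 2.91% of 206 calls were unchanged genes. The moved genes were well counted, went up and down in equal number and shared a fixed spread. The real comparison called 8817 of 16210 genes. The simulation therefore does not cover a shift in scaling, genes with few counts or the pairing of libraries.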

Additional observations from a re-analysis of the deposited data

How the results depend on the processing

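For single genes, 1188 results under the alternatives kept their direction and their side of the threshold, 12 lost a call, 21 gained one and 20 turned direction. Full against intermediate for Cyp7b1, reported as -0.00, lay on both sides of 0: it was 0.034 with DESeq2, 0.035 with median-of-ratios factors, 0.19 with total counts only, 0.0074 with no filter, 0.021 with a mean of at least 50 counts, 0.0022 with the replicate block and 0.0037 in the fit of 6 libraries, and ran from -0.16 to 0.23 when 1 library was left out. Intermediate against early for Cyp39a1 was 0.60 with total counts only and ran from -0.13 (without early replicate 2) to 0.035 (without early replicate 1), and full against early for Cyp39a1 was 0.37 with total counts only. Between BEC and full, leaving out 1 library moved Cyp7a1 from -0.33 to 0.67, Slc27a5 from -0.31 to 0.42 and Akr1d1 from -0.46 to 0.0078, none of them called. For the second change minus the first, Slc27a5 was -0.15 with total counts only and Amacr ran from -0.33 to 0.0079 when 1 library was left out. The count of genes whose 2 changes differed, 0, became 3 with DESeq2 (19.8% of all genes called), 3 with total counts only (37.9%), 5 with no filter (9.7%) and 4 with the replicate block (21.6%), and ran from 0 to 2 when 1 library was left out. The 5 genes lower in BEC than in full became 2 against a minimum 2-fold change (2.45% of all genes lower) and 4 to 5 when 1 library was left out (8.14% to 11.5% lower). The cause was not tested. The replicate block, which follows the pairing of libraries, changed no other call of the 9 genes; for the ratios, pairs were compared as an alternative chosen after seeing the data. With total counts only, 1 gene was higher and 7 lower at the first step, where 59.4% of all genes were higher and 10.01% lower. All other counts of called synthesis genes stayed within 1.5 times. Depth limits Cyp8b1 in BEC, where libraries held 2 to 3 counts.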
